A study of Homo sapiens with 4 samples.

Results

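This account compares THP-1 cells after 24 h with platelet-like particles to THP-1 cells after 12 h with them, on 1 array a side. THP-1 is an established cell line that came from a monocytic leukaemia in a person, and it stands in for monocytes as a leukaemic model. The series design states that cells in co-culture had received Pam3CSK4, a synthetic lipopeptide that activates TLR2 together with TLR1, so both arrays shared that treatment. The series has 4 arrays in all. The other arrays hold resting THP-1 cells and THP-1 cells given Pam3CSK4 without particles, and they are used here to place each level. The cells from which the particles came, the particle dose and the duration of Pam3CSK4 alone are not given in the sources used here. The titles of the co-culture samples carry 13 and 25, whereas their descriptions and sources give 12 h and 24 h, which were used.

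Every gene was described by 1 probe set, a group of short array probes that reads part of a transcript. It was the set with the highest mean over the 4 arrays among those naming that gene alone. A gene was kept where it reached 6.19 log2, the median of all values, on either co-culture array. That kept 13122 of 19775 genes. At the edge of the filter, MZF1-AS1 was kept with a higher co-culture value of 6.191, and AQP5 was left out with 6.190. All values below are log2 levels or differences of log2 levels, 24 h minus 12 h unless stated, and a difference of 1 is 2-fold. With 1 array a side there is no spread between cultures, so no difference could be tested. The agreement between probe sets of the same gene is the available measure of precision. It reflects the arrays and not the cultures: where a gene had more than 1 probe set above the filter, the median range of its differences was 0.24.

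Toll-like receptor ligands switch on transcription factors of the NF-kB family in monocytes, and these drive chemokines, cytokines and their own inhibitors in a first wave. A second wave can follow where the cells make type I interferon, which induces antiviral genes through STAT and IRF factors. Platelets and their particles bind monocytes through P-selectin and its ligand and through integrins, and can pass RNA, protein and chemokines to them. The gene lists used below follow these roles.

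The co-culture arrays were close to each other, with a Spearman correlation of 0.993 over all probe sets, and 12524 of the 13122 genes (95.4%) differed by less than 1.5-fold. At 24 h, 46 genes were at least 2-fold higher (0.351% of genes) and 30 at least 2-fold lower (0.229%). By sign alone, 7566 genes had a positive and 5538 a negative difference, against which the sign counts of lists below are to be read. At 1.5-fold, 414 genes were higher (3.16%) and 184 lower (1.4%). Just inside the 2-fold line were GNAI1 at 1.001 and PXDC1 at -1.004, and just outside it SLAIN1 at 0.989 and CD80 at -0.998. After cyclic loess, a second normalization that removes trends with level, the counts were 33 higher and 34 lower, so the higher share of the called genes was 49.3% in place of 60.5%. With probe sets of a gene averaged they were 21 and 22, a higher share of 48.8%.

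**Figure D1:**
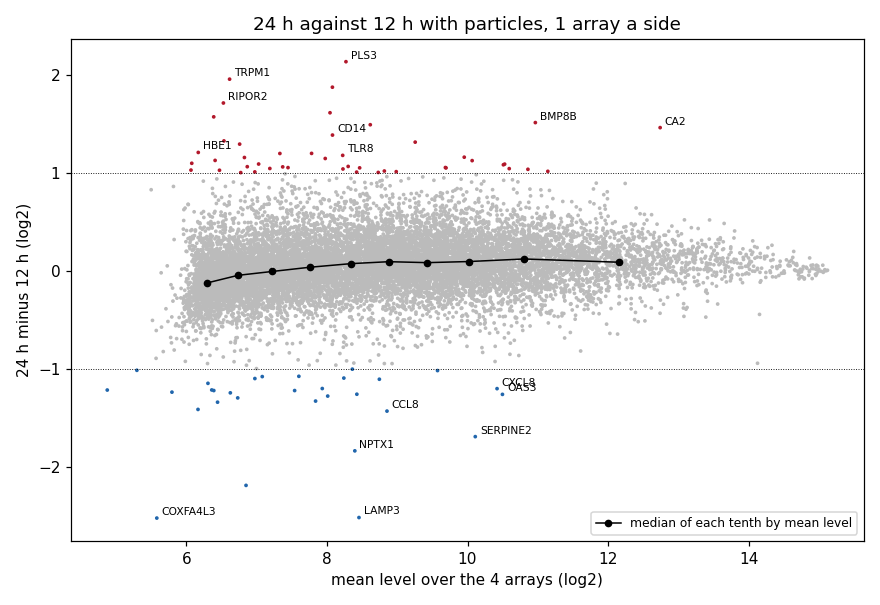
Difference of 24 h minus 12 h (log2, vertical axis) against mean level over the 4 arrays (log2, horizontal axis) for 13122 genes, 1 point each. Red points are at least 2-fold higher at 24 h, blue points at least 2-fold lower, dotted lines mark 2-fold, and the black line joins the median differences of 10 equal groups of genes ordered by level, which run from -0.13 in the lowest group to 0.12 in group 9.

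Several whole-array measures moved with the comparison, and their part in the results was not tested. With the genes cut into 10 equal groups by level, the median difference was -0.13 in the lowest group and between 0.07 and 0.12 in each of the upper 6. Bacterial control transcripts added at hybridisation, 18 probe sets, differed by -0.21 to 0.04 with a median of -0.09. Those added before labelling, 24 probe sets, differed by -0.49 to 0.10 with a median of -0.17. For GAPDH, the control probe set at the 3' end exceeded that at the 5' end by 0.92 at 12 h and 0.70 at 24 h, a gap that widens as RNA is degraded. For ACTB the gap was 3.17 and 2.90. ACTB itself differed by -0.01 and GAPDH by 0.05. Of the 9 monocytic markers listed, 7 had a probe set of their own and 6 passed the filter. Lysozyme (LYZ) stood at 13.29 and 13.81 at 12 h and 24 h, CD4 at 8.67 and 8.69, and CSF1R at 9.001 and 8.62, while the granule peroxidase MPO was under the filter at 5.74 and 5.53. T cell (CD3D, CD3E), B cell (MS4A1) and endothelial (CDH5, KDR) markers lay between 4.12 and 6.37 on both arrays.

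Chemokines that attract neutrophils made up the most displaced list. These CXC chemokines signal through CXCR1 and CXCR2. Of the 6 listed, 5 passed the filter, and each of the 5 was at least 2-fold lower at 24 h, against 0.229% of all genes. CXCL5 stayed under the filter. Their median difference was -1.22, against 0.04 over all genes. CXCL8, the main neutrophil attractant, stood at 6.27 in resting cells, 11.01 with Pam3CSK4, 12.80 at 12 h and 11.60 at 24 h, a difference of -1.20. CXCL1 stood at 5.49, 10.25, 11.79 and 10.77 in the same order, and CXCL2 at 5.98, 8.47, 10.25 and 8.99. For each of these genes the 12 h array was the highest of the 4 and the 24 h array came next. CXCL3 stood at 5.47, 6.21, 7.55 and 6.33, and CXCL6 at 4.27, 6.18, 8.33 and 6.99. The resting values of CXCL1, CXCL2, CXCL3 and CXCL6 and the Pam3CSK4 value of CXCL6 were under the filter, so distances to them depend on background. CXCL8 differed by -1.56 on its other probe set above the filter. CXCL1, CXCL2 and CXCL3 are close paralogs, and the probe sets of CXCL2 and CXCL8 given here are of a kind that can bind related transcripts. Averaged over all its probe sets, of which 1 alone passed the filter, CXCL2 differed by -0.57. The comparisons with Pam3CSK4 alone share that array and each uses a co-culture array of the present comparison. Their own medians for the 5 genes were 1.78 at 12 h and 0.52 at 24 h.

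The promoters of these 5 genes are shown because the genes were lower together, and each holds a kappaB-type sequence, a form of the site that NF-kB proteins bind. Capitals mark the match to GGNNTTTCC on either strand. The windows run from 250 bases before to 50 bases after the RefSeq start of the gene, on GRCh38.p14, 5' to 3' on the strand of the gene: chr4:73869143-73869442 (+) for CXCL1, chr4:74099146-74099445 (-) for CXCL2, chr4:74038640-74038939 (-) for CXCL3, chr4:73836428-73836727 (+) for CXCL6 and chr4:73740319-73740618 (+) for CXCL8.
CXCL1: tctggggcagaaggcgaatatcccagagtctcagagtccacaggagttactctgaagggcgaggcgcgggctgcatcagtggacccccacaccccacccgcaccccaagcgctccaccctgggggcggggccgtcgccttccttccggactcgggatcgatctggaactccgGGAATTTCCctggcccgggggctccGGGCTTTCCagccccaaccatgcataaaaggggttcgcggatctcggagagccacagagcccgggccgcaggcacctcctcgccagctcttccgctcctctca
CXCL2: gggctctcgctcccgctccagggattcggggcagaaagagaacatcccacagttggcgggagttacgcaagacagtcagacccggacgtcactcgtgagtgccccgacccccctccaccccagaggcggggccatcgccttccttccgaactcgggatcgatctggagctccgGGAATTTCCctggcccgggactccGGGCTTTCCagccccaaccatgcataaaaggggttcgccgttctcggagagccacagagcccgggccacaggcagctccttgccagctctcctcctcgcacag
CXCL3: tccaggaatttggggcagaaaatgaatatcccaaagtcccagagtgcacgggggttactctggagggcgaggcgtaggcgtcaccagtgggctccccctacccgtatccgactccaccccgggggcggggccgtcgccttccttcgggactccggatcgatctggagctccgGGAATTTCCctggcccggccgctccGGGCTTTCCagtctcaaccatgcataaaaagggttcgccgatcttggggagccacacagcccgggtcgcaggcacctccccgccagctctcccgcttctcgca
CXCL6: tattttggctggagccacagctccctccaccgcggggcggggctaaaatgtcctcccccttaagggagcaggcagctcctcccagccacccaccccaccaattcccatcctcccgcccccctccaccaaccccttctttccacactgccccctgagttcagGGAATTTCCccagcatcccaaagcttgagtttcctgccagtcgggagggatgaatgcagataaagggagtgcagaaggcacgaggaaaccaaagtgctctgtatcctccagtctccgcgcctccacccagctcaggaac
CXCL8: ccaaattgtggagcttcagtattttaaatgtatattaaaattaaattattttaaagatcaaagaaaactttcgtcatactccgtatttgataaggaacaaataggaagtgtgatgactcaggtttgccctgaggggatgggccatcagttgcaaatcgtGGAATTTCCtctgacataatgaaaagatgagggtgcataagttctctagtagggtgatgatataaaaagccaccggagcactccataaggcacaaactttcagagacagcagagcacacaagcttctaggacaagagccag

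The match occurred 2 times each in CXCL1, CXCL2 and CXCL3, beginning between 78 and 53 bases before the start, and 1 time each in CXCL6 and CXCL8, 89 and 91 bases before it. Of 27305 RefSeq promoters of this length 1710 held it (6.26%). Among genes of the comparison with a promoter in the table it was found in 696 of 10572 (6.58%). Among those at least 1.5-fold lower at 24 h it was in 19 of 127 (14.96%), and among those at least 1.5-fold higher in 14 of 336 (4.17%). The 19 include the chemokine genes whose promoters are shown, so that share is not separate from them. TATAAA, also searched, was in 24 of the 127 lower promoters (18.9%) and 26 of the 336 higher (7.74%). Among genes of the comparison it was in 647 of 10572 (6.12%). A larger share among the lower genes was thus not particular to the kappaB-type sequence. These shares describe letters in a window, and the kappaB-type motif was chosen with the values known.

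CC chemokines, which draw monocytes and lymphocytes, were lower as well. Of the 18 listed, 8 passed the filter, with a median difference of -0.71. Of the 8, 2 were at least 2-fold lower and 6 at least 1.5-fold lower (1.4% of all genes), and 1 had a positive difference, of 0.03. CCL8, a monocyte attractant also called MCP-2, stood at 4.65 in resting cells, 9.20 with Pam3CSK4, 11.50 at 12 h and 10.07 at 24 h, a difference of -1.43. CCL22, which attracts CCR4-bearing T cells, stood at 7.79, 7.42, 8.73 and 7.40, so that the 12 h array alone was set apart. CCL2 differed by -0.86, CCL20 by -0.76, CCL4 by -0.66 and CCL5 by -0.65, and CCL5 ranged from -0.65 to -0.22 over 3 probe sets. With no filter, 15 members gave a median of -0.36. Of the 8 kept genes 5 had a promoter in the table, and 1 of these, that of CCL20, held the kappaB-type sequence. The promoters of CCL8 and CCL22 had 0 matches.

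Chemokines of lymphocytes did not share this pattern throughout. CXCL13, a B cell attractant, stood at 12.18 at 12 h and 11.46 at 24 h, a difference of -0.72. CXCL10, an interferon-induced ligand of CXCR3, stood at 10.41 and 10.52, CXCL14 at 10.83 and 11.07, and CXCL12 at 7.76 and 8.05. Those 3 were within 1.5-fold, and both CXCL12 and CXCL14 had 1 probe set at -0.01. Chemokine receptors had no list of their own, and the 4 that belong to other lists went both ways. CCR2, which binds CCL2, differed by 0.59 and CX3CR1, the fractalkine receptor, by 0.68, with 0.15 on its other probe set. CCR1, a receptor of CCL5, differed by -0.30 and CCR7, which guides cells to lymph nodes, by -0.31. CXCR4, the receptor of CXCL12, was named after its values were seen. It stood at 10.69 at 12 h and 11.70 at 24 h, and its 3 probe sets differed by 0.44 to 1.01.

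**Figure D2:**
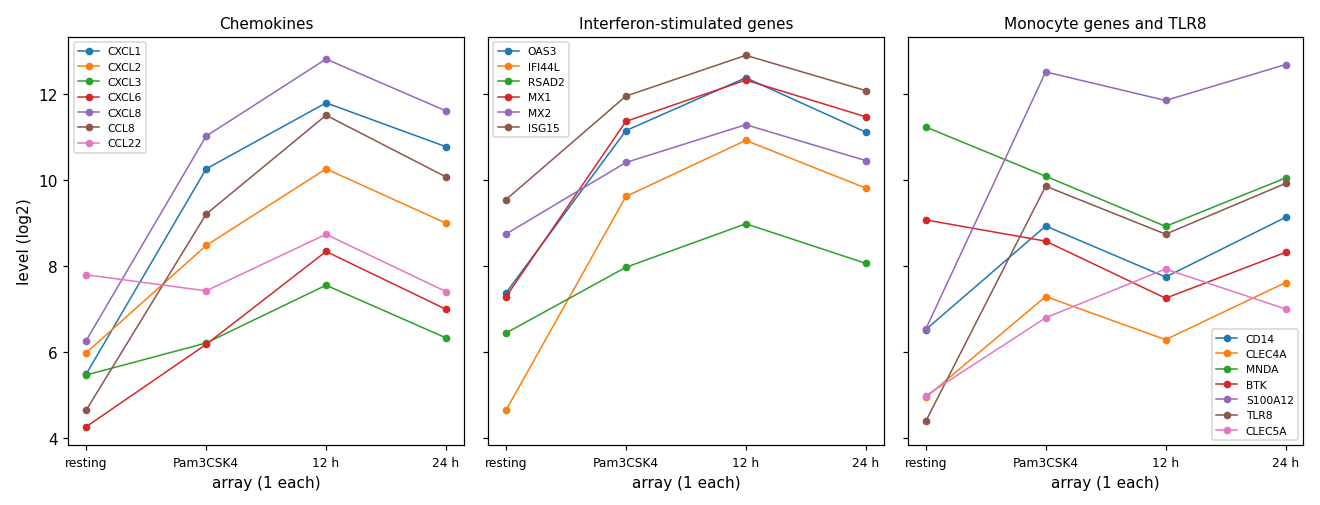
Levels (log2, vertical axis) of chemokines, interferon-stimulated genes and monocyte genes with TLR8 on the 4 arrays, 1 array each; lines join the points of a gene and are no time course. Chemokines and interferon-stimulated genes are highest at 12 h, and CD14, MNDA, BTK, CLEC4A and TLR8 are lower at 12 h than at 24 h, whereas CLEC5A is higher at 12 h.

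Genes around NF-kB and the cytokines it controls were shifted the same way by smaller amounts. Of 21 NF-kB subunits, inhibitors and targets that passed the filter, 19 had a negative difference, 6 of them by at least 1.5-fold, 0 were 1.5-fold higher, and the median was -0.26. TNFAIP2, a TNF-induced gene, differed by -0.93, IER3, an early survival gene, by -0.92, and TRAF1, an adaptor of TNF receptors, by -0.91. The subunit genes NFKB1 and REL differed by -0.68 and -0.67. REL and TNFAIP2 had probe sets that differed less, -0.01 and -0.21. Among cytokines and growth factors 5 of 22 were at least 1.5-fold lower and 0 higher (median -0.15). IL1B stood at 6.83, 10.78, 11.56 and 10.79 on the resting, Pam3CSK4, 12 h and 24 h arrays, a difference of -0.77, with -0.65 on its other probe set. IL23A differed by -0.74, IL6 by -0.68, from 6.33 to 5.65 under the filter, EBI3 by -0.63 and TNFSF13B by -0.635. Of the immediate early and MAPK feedback genes, the phosphatase genes DUSP10 and DUSP4 differed by -0.79 and -0.73, while MYC and KLF4, a factor of monocyte differentiation, differed by 0.64 and 0.83, KLF4 with 0.15 on its other probe set. That list of 24 had 4 members at least 1.5-fold lower, 2 higher and a median of 0.04.

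Antiviral interferon-stimulated genes had negative differences nearly throughout, most of them within 1.5-fold. All 38 listed genes passed the filter: 35 had a negative difference, 14 were at least 1.5-fold lower, 2 of them at least 2-fold, 0 were 1.5-fold higher, and the median was -0.41. OAS3, which makes the 2'-5' oligoadenylates that activate RNase L, stood at 7.37 in resting cells, 11.14 with Pam3CSK4, 12.37 at 12 h and 11.11 at 24 h. That difference of -1.26 became -0.67 with its probe sets averaged, of which 1 alone passed the filter. IFI44L stood at 4.65, 9.61, 10.91 and 9.81, a difference of -1.11. For both genes the 24 h level was within 0.20 of that with Pam3CSK4 alone and the 12 h level was the highest. The antiviral radical enzyme RSAD2 differed by -0.92 and -0.29 on its 2 probe sets, the GTPases MX1 and MX2 by -0.85 and -0.83, and the ubiquitin-like modifier ISG15 by -0.82. The 3 members with a positive difference were IFI27 at 0.30, BST2, which tethers budding virus, at 0.28 and IFIT2 at 0.08, though a second IFIT2 probe set differed by -0.71. The medians against Pam3CSK4 alone, which share that array, were 0.59 at 12 h and 0.11 at 24 h. The interferon genes IFNB1 and IFNL1, named after their values were seen, were under the filter level on all 4 arrays. IFNB1 stood at 4.82 at 12 h and 5.03 at 24 h, and IFNL1 at 5.77 and 5.36. Whether interferon had a part in these differences was not tested.

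Promoters of 3 of these genes, picked because they hold the motif, are shown with the interferon-stimulated response element in capitals, searched on both strands as GAAA, any 2 bases and GAAA again. The windows, built as above on GRCh38.p14, are chr12:112938224-112938523 (+) for OAS3, chr1:78620198-78620497 (+) for IFI44L and chr21:41420308-41420607 (+) for MX1.
OAS3: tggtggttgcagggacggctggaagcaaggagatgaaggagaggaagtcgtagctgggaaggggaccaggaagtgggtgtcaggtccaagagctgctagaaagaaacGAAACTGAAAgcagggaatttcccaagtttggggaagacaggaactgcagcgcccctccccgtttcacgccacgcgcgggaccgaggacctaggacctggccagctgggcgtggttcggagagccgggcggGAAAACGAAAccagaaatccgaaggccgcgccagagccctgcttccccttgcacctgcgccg
IFI44L: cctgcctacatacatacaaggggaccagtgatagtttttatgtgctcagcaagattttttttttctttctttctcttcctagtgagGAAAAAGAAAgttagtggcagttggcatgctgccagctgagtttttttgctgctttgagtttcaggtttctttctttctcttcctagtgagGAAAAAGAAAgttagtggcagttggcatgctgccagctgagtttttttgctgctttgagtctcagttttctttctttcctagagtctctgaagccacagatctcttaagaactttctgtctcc
MX1: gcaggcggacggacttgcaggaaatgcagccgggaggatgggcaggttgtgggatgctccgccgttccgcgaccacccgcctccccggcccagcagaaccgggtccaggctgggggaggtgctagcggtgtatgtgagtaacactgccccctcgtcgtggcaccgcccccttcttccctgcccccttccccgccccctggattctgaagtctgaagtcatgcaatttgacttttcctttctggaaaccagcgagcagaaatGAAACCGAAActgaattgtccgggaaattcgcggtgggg

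Of the 38 genes 32 had a promoter in the table, and 22 of these (68.8%) held the motif, against 2.77% of promoters of genes in the comparison and 3.65% of the table. That of RSAD2, which differed by more than MX1, had 0 matches. None of the 5 neutrophil-attracting chemokine promoters held it, and 5 of the 32 interferon-stimulated promoters held the kappaB-type sequence. The interferon-stimulated motif was in 10 of 127 promoters of genes at least 1.5-fold lower at 24 h (7.87%) and in 6 of 336 of those higher (1.79%). The 10 include OAS3, IFI44L, MX1 and further members of the interferon-stimulated list, so that share is not separate from the list.

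Guanylate-binding protein genes and factors of interferon signalling were less displaced as a list. Of 19 guanylate-binding protein, IRF and STAT genes, 1 was at least 1.5-fold lower, 0 higher, and the median was -0.10. The 1 was STAT4, a signal transducer of IL-12, at 5.99, 6.56, 7.84 and 6.54 in the order resting, Pam3CSK4, 12 h and 24 h, where the 12 h array alone stood out. IRF9, the DNA-binding part of the interferon-activated complex, differed by -0.50, and GBP2 by 0.54 with 0.24 on another probe set. Class II presentation genes, 11 of 11 measured, lay within 1.5-fold with a median of -0.01, CD74 at 0.36 (-0.20 on its other probe set) and HLA-DMB at -0.27 among them. CTSS, the protease that trims the class II invariant chain, differed by 0.29, but its 3 probe sets ran from -0.55 to 1.19.

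Dendritic maturation genes included LAMP3, whose difference was the largest among all members of the 45 lists. This protein, or DC-LAMP, found on lysosomes of maturing dendritic cells, stood at 5.82 in resting cells, 8.52 with Pam3CSK4, 11.00 at 12 h and 8.48 at 24 h, and so was 5.72-fold lower at 24 h. SLAMF7, a receptor of the SLAM family, stood at 4.34, 8.44, 10.27 and 8.99, with differences of -1.28 to -0.65 over 3 probe sets. CD80, a ligand of CD28, differed by -0.998, and by -0.55 on its other probe set. CD83 differed by -0.76 and the IL-7 receptor gene IL7R by -0.73. Of 15 members measured, 5 were at least 1.5-fold lower and 14 were negative, with a median of -0.31.

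Outside the lists, COXFA4L3, formerly C15orf48, had the most negative difference of all kept genes. It encodes a small mitochondrial protein of inflamed cells that replaces a cytochrome oxidase subunit. It stood at 4.59, 4.75, 7.75 and 5.23 on the resting, Pam3CSK4, 12 h and 24 h arrays, a difference of -2.52. Its values on the other arrays were under the filter, so the 12 h array alone held a clear signal. HMGN2P46, a pseudogene transcript on the same chromosome, 15, stood at 4.96, 6.58, 9.02 and 6.83. Its probe set is of the kind that can bind related transcripts. NPTX1, a neuronal pentraxin, stood at 7.87, 8.01, 9.77 and 7.93, and SERPINE2, an inhibitor of thrombin and urokinase, at 8.85, 9.94, 11.67 and 9.98. In both the 12 h value was set apart, and the 24 h value lay within 0.08 of that with Pam3CSK4. COL8A1, a short-chain collagen, differed by -1.41 and the transcripts TOX-DT and LINC00597 by -1.25 and -1.24. Of the 30 genes at least 2-fold lower, 7 were under the filter at 24 h, and the 7 with several probe sets above the filter were negative on every one.

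Metallothionein and NRF2 target genes had negative medians, with few members past 1.5-fold. Of the 9 metallothionein and zinc export genes 8 were negative, 1 by at least 1.5-fold, with a median of -0.39. MT2A, a zinc-binding protein gene, stood at 14.05 at 12 h and 13.58 at 24 h, and MT1M differed by -0.73. These genes are near-identical, and reads of one can come from another. Of 15 NRF2 targets 13 were negative and 2 at least 1.5-fold lower (median -0.27), OSGIN1 at -0.92 and the sulfiredoxin gene SRXN1 at -0.86. The 2 probe sets that read the heat shock genes HSPA1A and HSPA1B together differed by -0.70 and -0.72, while the remaining 12 heat shock genes had a median of -0.06. AXL, a receptor that binds phosphatidylserine through GAS6, stood at 9.15 at 12 h and 8.05 at 24 h, and its other probe set differed by -0.36. TIMP1, a metalloproteinase inhibitor, differed by -0.64.

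Monocyte genes went in both directions. Of 34 listed, 27 passed the filter, 4 were at least 2-fold higher at 24 h (0.351% of all genes), 9 at least 1.5-fold higher (3.16%), 1 at least 1.5-fold lower, and the median was 0.19. CD14, the lipopolysaccharide co-receptor that also serves TLR2, stood at 6.52 in resting cells, 8.93 with Pam3CSK4, 7.74 at 12 h and 9.13 at 24 h, 2.61-fold higher at 24 h. CLEC4A, an inhibitory lectin receptor, stood at 4.95, 7.29, 6.29 and 7.61, with differences of 1.13 and 1.32 on 2 probe sets. Both had their highest value at 24 h, close to that with Pam3CSK4. The interferon-inducible nuclear protein gene MNDA stood at 11.22, 10.08, 8.92 and 10.04, and the tyrosine kinase gene BTK at 9.07, 8.57, 7.25 and 8.31. In these, resting cells were highest and the 12 h array lowest. S100A12, a calgranulin, differed by 0.83, the proteoglycan VCAN by 0.65 and ITGAM, the alpha chain of Mac-1, by 0.72, with -0.14 on its other probe set. CLEC5A, a DAP12-coupled lectin, went the other way, 7.93 at 12 h and 7.001 at 24 h. LYZ differed by 0.52.

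Receptors and adhesion molecules had a few separate members. In the Toll-like receptor list 2 of 17 were at least 2-fold higher, CD14 and TLR8, 0 were lower, and the median was 0.00. TLR8, an endosomal sensor of single-stranded RNA, stood at 4.39, 9.85, 8.74 and 9.91 in the order resting, Pam3CSK4, 12 h and 24 h. That difference of 1.18 was 0.84 with its probe sets averaged, of which 1 alone passed the filter. TLR2, the receptor of the ligand used, differed by 0.51. Of 18 genes of adhesion to platelets and endothelium 3 were at least 1.5-fold higher: ITGA4, a chain of the VCAM1 receptor, by 1.05 (0.49 to 1.05 over 3 probe sets and 0.95 after cyclic loess), ITGAL, the alpha chain of LFA-1, by 0.83 and ITGAM by 0.72. PECAM1 differed by -0.49, and was between -0.52 and -0.33 on 5 probe sets.

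Lipid genes were the list with the highest median, 0.38 over 17 LXR and lipid genes, of which 15 were positive, 5 at least 1.5-fold higher and 0 lower. LXR receptors sense oxidised sterols and switch on cholesterol export. The export pump gene ABCA1 stood at 9.66, 10.03, 9.39 and 10.21 on the resting, Pam3CSK4, 12 h and 24 h arrays, with 0.82 and 0.96 on its 2 probe sets. The apolipoprotein gene APOC1 differed by 0.89, the phosphodiesterase gene SMPDL3A by 0.77, the receptor gene NR1H3 by 0.67 and MYLIP, which targets the LDL receptor for decay, by 0.67. For ABCA1 the 12 h array was the lowest of the 4 and the 24 h array the highest. MYLIP had 5 probe sets that ran from -0.18 to 0.67. The list median was 0.23 with probe sets averaged and 0.28 without the probe sets that can bind related transcripts. Among macrophage genes, 3 of 14 were at least 1.5-fold higher, osteopontin (SPP1) at 0.94, lipoprotein lipase (LPL) at 0.70 and the tetraspanin CD9 at 0.60, and 1, AXL, was at least 1.5-fold lower (median 0.15, with 5 of the 14 negative, TREM2 at -0.57 among them). The sterol synthesis list had a median of 0.07, with ACAT2 at 0.74 and FDPS at 0.48, and its median was -0.04 after cyclic loess.

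**Figure D3:**
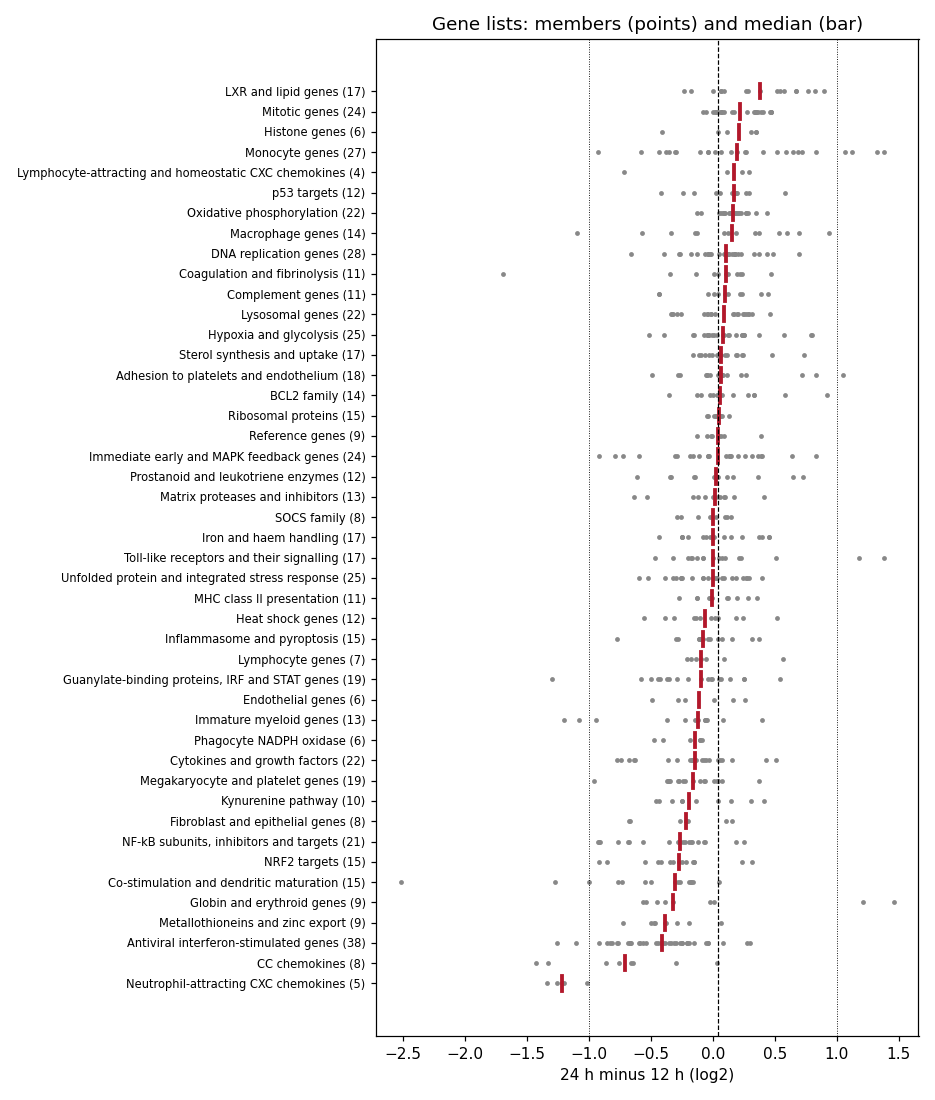
Differences of 24 h minus 12 h (log2, horizontal axis) for the kept members of 45 gene lists (grey points, number kept in brackets), with the median of each list as a red bar. The dashed line is the median of all 13122 genes, 0.04, and dotted lines mark 2-fold; neutrophil-attracting chemokines lie at the lower end with a median of -1.22 and LXR and lipid genes at the upper end with 0.38.

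The single genes with the largest positive differences were of varied function. PLS3, plastin 3, which bundles actin, stood at 8.30 in resting cells, 8.83 with Pam3CSK4, 6.91 at 12 h and 9.05 at 24 h, 4.38-fold higher at 24 h. TRPM1, a cation channel, stood at 3.95, 7.64, 6.46 and 8.41, and RIPOR2, an inhibitor of the GTPase RhoA, at 3.56, 8.07, 6.39 and 8.10. In each of the 3 the 12 h array was the lowest of the treated arrays. TRPM1 and RIPOR2 had a second probe set with smaller differences, 0.86 and 0.61. CA2, a carbonic anhydrase gene, stood at 13.70, 13.06, 11.37 and 12.83, and BMP8B, a secreted factor of the BMP family, at 12.47, 11.29, 9.29 and 10.80. HAL, the enzyme that starts histidine breakdown, differed by 1.49 (0.67 averaged), TRIM58, a ubiquitin ligase of maturing red cells, by 1.57 from a 12 h value of 5.25, and LGR4, an R-spondin receptor, by 1.31 (0.43 averaged). BMP8B was between 0.19 and 1.51 over 3 probe sets, and averaged 0.99. WWTR1, a co-activator of the Hippo pathway, differed by 1.16 (0.51 averaged, with 1 probe set above the filter). S1PR3 and FAM117B, which differed by 1.87 and 1.61, each had another probe set at -0.45 and were left out of the named genes by rule. Of the 46 genes at least 2-fold higher, 10 were under the filter at 12 h. Among the 23 with several probe sets above the filter 18 had a single sign, as had 53.8% of all such genes.

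Of 13 genes of immature myeloid cells 3 were at least 1.5-fold lower at 24 h, 2 of them at least 2-fold, and 10 lay within 1.5-fold, with a median of -0.12. CEACAM6, an adhesion molecule of granulocytes, stood at 10.35, 6.95, 7.82 and 6.62 in the order resting, Pam3CSK4, 12 h and 24 h, and KIT, the receptor of stem cell factor, at 8.47, 6.47, 7.23 and 6.15. CTSG, the granule protease cathepsin G, stood at 15.08, 13.63, 14.37 and 13.42. Each of the 3 was lowest at 24 h. MYB, a factor of progenitor growth, had the opposite sign at 0.40, with 1.02 on its other probe set.

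Proliferation genes differed little. Of 24 mitotic genes 22 were positive, with a median of 0.22 and 0 at 1.5-fold, CCNB1 and CDK1 at 0.47 each. After cyclic loess that median was 0.12. The genes have a median level of 10.95, and the upper 2 of the 10 level groups of all genes had medians of 0.12 and 0.09. Of 28 DNA replication genes 1 was at least 1.5-fold higher, the clamp loader gene RFC3 at 0.69 (its 3 probe sets from -0.16), and 1 lower, the polymerase gene POLA1 at -0.66 (median 0.11). Other lists lay closer to all genes, among them ribosomal proteins at 0.04, unfolded protein and stress genes at -0.0006, SOCS genes at 0.00, oxidative phosphorylation at 0.16 and lysosomal genes at 0.09. After cyclic loess the ribosomal and SOCS medians were both -0.05, and the lysosomal median was -0.05 without the probe sets that can bind related transcripts, so these medians have no settled sign. The median of the stress genes was 0.003 with the 75th percentile filter.

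Gamma and epsilon globin were higher at 12 h than on the arrays without particles and higher again at 24 h. Gamma globin is the fetal chain of haemoglobin, epsilon globin the embryonic one. The gamma genes HBG1 and HBG2 are near-identical and were read together by 3 probe sets, which stood at 9.20 to 9.39 at 12 h and 9.95 to 10.30 at 24 h. The differences were 0.70, 0.75 and 0.96, or 1.63-fold to 1.95-fold. On the arrays without particles the 3 stood at 5.01 to 6.85. HBE1, epsilon globin, stood at 5.42, 5.45, 6.30 and 7.504 on the resting, Pam3CSK4, 12 h and 24 h arrays, 2.31-fold higher at 24 h. Its second probe set, under the filter, differed by -0.18. These probe sets for HBG1 and HBG2 and the first for HBE1 had their highest value of the 4 arrays at 24 h, whereas the 5 neutrophil-attracting chemokines had theirs at 12 h. The 6 probe sets of alpha globin, HBA1 and HBA2, differed by -0.02 to 0.44, and the 4 of HBB by -0.59 to -0.03.

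**Figure D4:**
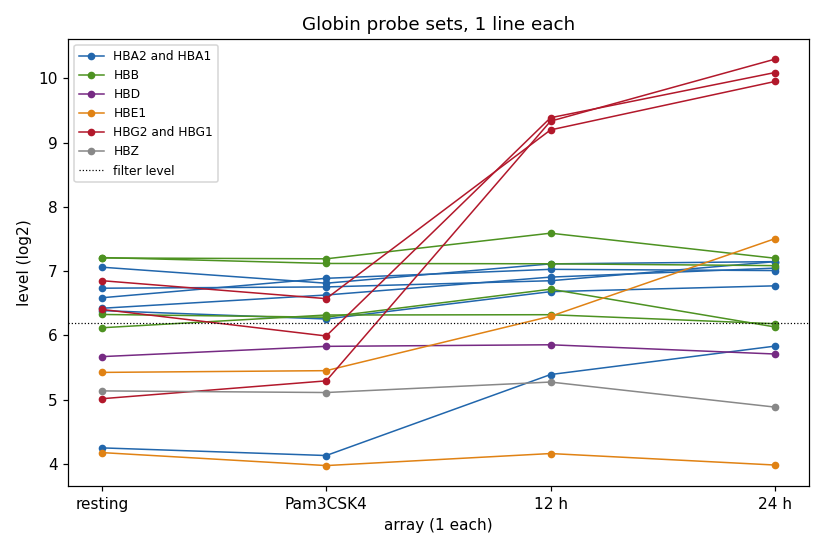
Levels (log2, vertical axis) of globin probe sets on the 4 arrays, 1 array each, with 1 line per probe set coloured by gene; the dotted line is the filter level of 6.19. The 3 probe sets of HBG1 and HBG2 stand at 9.20 to 9.39 at 12 h and 9.95 to 10.30 at 24 h, and 1 of the 2 HBE1 probe sets goes from 6.30 to 7.504.

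Most other erythroid genes with a probe set of their own, and platelet genes, did not follow gamma globin. Of 29 globin and erythroid genes 9 had a kept probe set of their own, 2 were at least 2-fold higher, HBE1 and CA2, 0 were 1.5-fold lower, and the median was -0.32. That median was -0.01 with the 75th percentile filter, -0.14 with probe sets averaged and -0.03 without probe sets that can bind related transcripts. CA1 differed by -0.54 and the membrane anchor gene ANK1 by -0.56, with 0.12 on another of its probe sets. Megakaryocyte and platelet genes, 19 of 37 kept, had a median of -0.16, with 13 negative, 1 at least 1.5-fold lower and 0 higher. That 1 was THBS1, thrombospondin, at 3.32, 7.48, 8.79 and 7.83 in the same array order, and a further probe set of it differed by 0.00. Of 6 defining platelet genes 3 passed the filter. GP9 stood at 7.58, 7.15, 7.51 and 7.26 on the resting, Pam3CSK4, 12 h and 24 h arrays. In that order GP1BA stood at 6.22, 6.41, 6.79 and 6.44, and ITGA2B at 6.45, 6.28, 6.24 and 6.16. The other 3, PF4, PPBP and TUBB1, lay between 3.62 and 5.97 on both arrays, under the filter. SELP, or P-selectin, stood at 6.37, 6.06, 6.57 and 6.20 in the same array order, and TREML1 at 7.25, 6.58, 7.12 and 6.76. GP9, ITGA2B and TREML1 were thus highest in resting cells, which had no particles, and GP1BA and SELP at 12 h. In bulk RNA a change in the amount of particle RNA and a change within the cells cannot be told apart. The genes of the platelet list had a median level of 7.0002, near the bottom of the level group that starts at 6.97. That group had a median difference of -0.01. The lowest level group had -0.13 and the next -0.05, and members of lower level fall in these.

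The difference between resting and Pam3CSK4-treated cells uses neither co-culture array and was set beside the present one, although probe sets were picked by their mean over all 4 arrays. Of the 30 genes at least 2-fold lower at 24 h, 18 (60.0%) were at least 2-fold higher with Pam3CSK4 than in resting cells, against 555 of 13122 (4.23%). The 18 were 3.24% of the 555, and 2 of the 30 (6.67%) were at least 2-fold lower with Pam3CSK4, against 1.41% of all genes. Of the 46 genes at least 2-fold higher at 24 h, 6 (13.04%) were at least 2-fold higher with Pam3CSK4 and 11 (23.9%) at least 2-fold lower, against 185 of 13122 (1.41%). The 11 were 5.95% of the 185. Among the 184 genes at least 1.5-fold lower, 84 (45.7%) were 2-fold higher with Pam3CSK4, and among the 414 at least 1.5-fold higher 36 (8.70%) were. As a description of these 4 arrays, genes lower at 24 h thus more often had a higher level after Pam3CSK4 than genes at large. Genes higher at 24 h also did so more often than the 4.23% of all genes, though by less. Those past 2-fold in either direction were also more often lower with Pam3CSK4 than the 1.41% of all genes. Over all 13122 genes the differences had a Pearson correlation of -0.22 and a Spearman correlation of -0.20, across genes that share arrays and level and are not independent. The GAPDH gap of 2.16 on the resting array and 0.59 with Pam3CSK4 also differed, and its part was not tested.

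**Figure D5:**
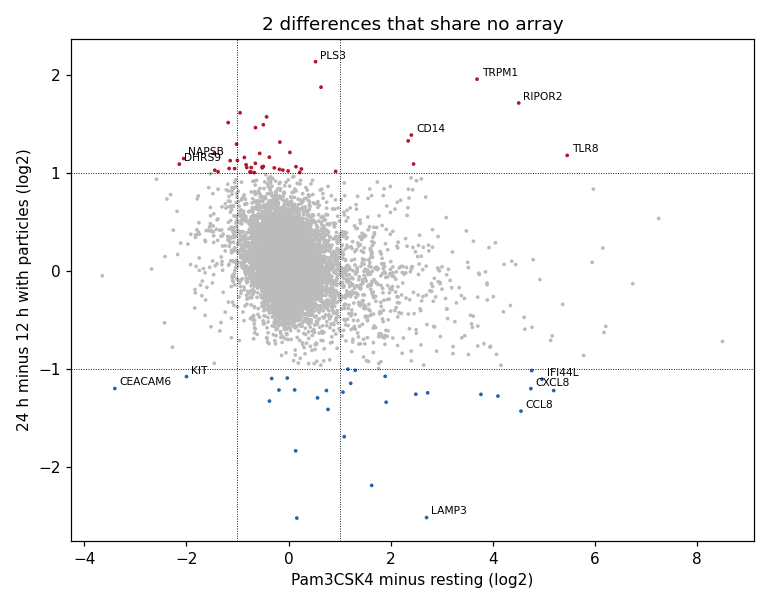
Difference of 24 h minus 12 h with particles (log2, vertical axis) against the difference of Pam3CSK4 minus resting (log2, horizontal axis) for 13122 genes, with 2-fold lines dotted and genes past 2-fold at 24 h in red (higher) or blue (lower). Of the 30 blue points 18 lie at or beyond 2-fold on the right, and of the 46 red points 11 lie at or beyond 2-fold on the left and 6 on the right.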

How the data were processed

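The deposited table holds 54675 probe sets with 1 column per array, as log2 values made by the authors with RMA in affy 1.28.1, per the submitters' processing notes. RMA corrects background and forces arrays to a common distribution, so a global change in RNA cannot be seen and low values are compressed. Signal over background was judged by level alone. No genome build is given in the sources used here. Groups came from the source labels.

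A platform annotation table named 1 gene for 41091 probe sets, 41037 of them matched by identifier in RefSeq GRCh38.p14. Genes, filter and differences were computed as the report states, with no test. The named genes were the 15 largest in each direction whose probe sets share a sign, each list's members past 1.5-fold and its 4 leading members, ACTB, GAPDH and the cell markers. The comparison and its 45 lists were chosen with earlier results of these data known. Counting was tested on simulated arrays.

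Alternatives were no filter, a 75th percentile filter (8.01), a filter on any of the 4 arrays, averaged probe sets, omission of _x_at and _s_at probe sets, cyclic loess (limma 3.58.1, R 4.3.3, 3 iterations), and 1.5-fold and 3-fold thresholds. Other steps used Python 3.11.15, numpy 2.4.6, pandas 2.3.3, scipy 1.17.1 and matplotlib 3.10.9. Promoters came from RefSeq.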

Additional observations from a re-analysis of the deposited data

Results flagged for a closer look

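Probe sets that name several genes or are not listed in the annotation were outside the gene comparison. Of 5081 such probe sets at or above 6.19 on either co-culture array, 19 were at least 2-fold lower and 15 at least 2-fold higher at 24 h, 0.374% and 0.295% of them. Over all 28353 probe sets at that level the shares were 0.219% lower and 0.317% higher.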

How the results depend on the processing

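The count of genes at least 2-fold higher at 24 h was 46, and was 29 with the 75th percentile filter, 21 with averaged probe sets, 414 at a 1.5-fold and 5 at a 3-fold threshold. The count of lower genes was 30, and was 18 with that filter, 184 at 1.5-fold and 5 at 3-fold. Stricter filters test fewer genes. Averages take in all probe sets of a gene, also those under the filter, and the cause of the lower counts with them was not tested. After cyclic loess 33 of the 46 higher and 29 of the 30 lower genes kept their call. The CC chemokine median of -0.71 was -0.36 with no filter, which adds members at low level. The LXR and lipid median of 0.38 was 0.23 with averaged probe sets and 0.28 without _x_at and _s_at probe sets, and the cause was not tested. Medians of neutrophil-attracting chemokines, antiviral interferon-stimulated genes and monocyte genes moved by less than 0.1 in the settings run. MYLIP and ITGAM changed sign without _x_at and _s_at probe sets, to -0.18 and -0.14, values of another probe set. Of the remaining values, named genes and list medians, 66 moved by over 0.15 (genes) or 0.1 (lists) with averaged probe sets, 23 without _x_at and _s_at probe sets and 8 after cyclic loess. Each difference rests on 1 array a side, and values under 6.19 have no established signal over background.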
